A study of Mus musculus with 6 samples.

Results

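The genes described here carry glucose into the cell, break it down to pyruvate, and move or burn the pyruvate and lactate that result. They were chosen by symbol: 32 genes, found in 33 of the 32285 gene rows of the deposited counts, since Aldoa has a second row under another identifier. Together they held 272494 of the 146898504 unique molecular identifiers (UMIs, each standing for 1 captured transcript) in the nuclei kept, 0.186% of the total. The nuclei were taken from frozen lumbar cords of mice on a C57BL/6 background, aged 110 days, as 3 SOD1G93A/PHD1-/- and 3 SOD1G93A/PHD1+/+ libraries. Every mouse thus carried SOD1G93A, a mutant human superoxide dismutase transgene under which motor neurons degenerate, as in amyotrophic lateral sclerosis, and no library without the transgene was analysed here. PHD1, made by Egln2, was absent by genotype from all cells of the PHD1-/- mice as far as the labels say; they do not name the deleted part of the gene. The labels speak of littermate pairs, and the groups are named here PHD1-/- and PHD1+/+ with replicates 1 to 3.

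PHD1 is an oxygen-dependent prolyl hydroxylase of the family that marks the alpha subunits of the hypoxia-inducible factors for degradation, and many glycolytic genes are known targets of those factors through a short hypoxia response element. Glycolysis runs from glucose uptake through hexokinase, phosphofructokinase, aldolase, enolase and pyruvate kinase to pyruvate, which is either reduced to lactate by lactate dehydrogenase or imported into mitochondria and oxidised by pyruvate dehydrogenase. Most steps have several isoenzymes whose use differs between cell types, and in nervous tissue lactate released by glia through monocarboxylate transporters is thought to feed axons and neurons.

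The promoters of the hexokinase and lactate dehydrogenase pairs are shown because their isoform shares stood in contrast: Hk2 made most of the hexokinase UMIs in microglia and few in neurons, astrocytes and oligodendrocytes, while Ldhb made most of the lactate dehydrogenase UMIs in all 4. Each is the 250 bases before the first transcription start listed for the gene in RefSeq (build GRCm38.p6), written 5′ to 3′ on the strand of the gene. Other starts were not read. The start used for Ldha lies inside its GENCODE gene (chr7:46841475-46855627), and the bases just after it occurred in no GENCODE transcript of Ldha. Capitals mark ACGTG or GCGTG, the core letters of the hypoxia response element, read on either strand; a stretch that matches on both strands was counted for each. The intervals are chr10:62379909-62380158 (minus strand) for Hk1, chr6:82774455-82774704 (minus) for Hk2, chr7:46845554-46845803 (plus) for Ldha and chr6:142507958-142508207 (minus) for Ldhb.
Hk1: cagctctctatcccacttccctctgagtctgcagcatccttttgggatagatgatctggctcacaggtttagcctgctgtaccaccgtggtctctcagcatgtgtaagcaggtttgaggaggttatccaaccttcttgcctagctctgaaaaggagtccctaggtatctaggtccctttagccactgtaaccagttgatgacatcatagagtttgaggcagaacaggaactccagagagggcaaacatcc
Hk2: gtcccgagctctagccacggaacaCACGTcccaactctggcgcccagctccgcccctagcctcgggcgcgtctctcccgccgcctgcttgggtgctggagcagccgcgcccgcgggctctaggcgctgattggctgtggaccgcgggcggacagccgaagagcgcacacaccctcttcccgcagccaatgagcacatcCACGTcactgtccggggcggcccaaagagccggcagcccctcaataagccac
Ldha: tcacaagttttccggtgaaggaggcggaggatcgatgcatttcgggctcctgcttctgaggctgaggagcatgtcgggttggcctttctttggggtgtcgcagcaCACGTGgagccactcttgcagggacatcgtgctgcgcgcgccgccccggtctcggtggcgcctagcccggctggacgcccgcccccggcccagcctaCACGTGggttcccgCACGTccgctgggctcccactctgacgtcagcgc
Ldhb: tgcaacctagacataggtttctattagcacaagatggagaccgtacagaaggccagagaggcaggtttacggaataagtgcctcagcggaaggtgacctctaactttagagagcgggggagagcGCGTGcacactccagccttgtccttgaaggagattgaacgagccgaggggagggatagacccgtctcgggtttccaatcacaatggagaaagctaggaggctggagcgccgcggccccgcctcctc
The core letters occurred 0 times before the start used for Hk1, 2 times for Hk2, 5 times for Ldha and 1 time for Ldhb. Such counts depend on the start used. Of the 30 genes of the set with a promoter in the table, 24 held the letters on either strand, against 10431 of 27025 promoters of the same length (38.6%). The promoters were not matched for base composition, whose part in this difference was not tested. For Pfkfb2, Pgam1, Eno1, Slc16a1, Pdk2 and Pdha1, as for Ldha, the bases after the start used occurred in no GENCODE transcript of the gene. A match of letters is a description and not a binding site.

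The deposited counts held 6601, 7423 and 6145 barcodes in PHD1-/- (replicates 1, 2, 3), against 9174, 8028 and 5387 in PHD1+/+ replicates 1, 2 and 3, and 41906 nuclei were kept. Replicate 1 of both groups stood apart: its barcodes come from another list, its nuclei were shallower (a median of 1365 UMIs in the PHD1-/- library and 1363 in the PHD1+/+ library; the other 4 ran between 2290.5 and 2902), and a female-expressed and a male-expressed transcript were both common in it (Xist in 63.4% and Uty in 8.56% of PHD1-/- replicate 1 nuclei, 33.9% and 14.9% in PHD1+/+ replicate 1), so those 2 libraries may stand for more than 1 mouse. The 2 replicate 1 libraries shared 86 barcodes, the most of any pair. Egln2 reached 9.66, 9.04 and 10.1 CPM (a gene's UMIs after scaling every library to the same total) in PHD1-/- (replicates 1, 2, 3), against 29.6, 18.8 and 16.4 CPM in PHD1+/+, with no overlap of the groups. In all nuclei 2.02% of all genes tested were likewise lower without overlap. The log2 fold change of Egln2 was -1.17 (SE 0.26), and the edgeR test described below did not call it after adjustment. Free RNA in the droplets was judged from neuronal transcripts in glia: Syt1 reached a median of 1.81% of its neuronal level in astrocytes, 2.49% in oligodendrocytes and 3.44% in microglia, but Snap25 reached 26.7%, 32.4% and 44.7%, so the share differed by gene.

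Classes of nuclei were rebuilt from the counts with the 32 genes left out of the clustering, and a class name stands for clusters that resemble that cell type by its markers. The classes compared are excitatory and inhibitory neurons, astrocytes, oligodendrocytes, oligodendrocyte precursors (OPC), microglia and endothelial cells; "neurons" means all neuron clusters together, which adds cholinergic and unresolved neurons. A level is the CPM of a gene within the summed UMIs of a class in 1 library, and levels are compared between classes for 1 gene at a time, because transcripts of different genes are not caught alike. Within most classes the nuclei of replicate 1 fell into other clusters than those of replicates 2 and 3, in both genotypes, and values within a replicate are therefore given where they matter.

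The glycolytic genes were spread unevenly over the classes. Of the 32 genes, 10 had their highest mean in astrocytes, 10 in endothelial cells, 8 in microglia, 2 in inhibitory neurons and 2 in oligodendrocytes. For 11 of the 32 the top class exceeded the next in each of the 6 libraries, and for 6 of these (Slc2a1, Hk2, Pfkl, Pfkm, Slc16a3 and Pdk3) the ranges of the libraries did not overlap either. For the other 21 genes the top class and the next could not be ranked by every library. Of the 10 genes highest in endothelial cells, only Slc2a1, Pfkl and Ldha led in all 6 libraries, while Pdha1 led in 3 and Gpi1 in 2. The endothelial means include PHD1-/- replicate 2 with 14563 UMIs in all, where 3 counts amount to 206 CPM. No gene had its highest mean in excitatory neurons or OPC.

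**Figure D1:**
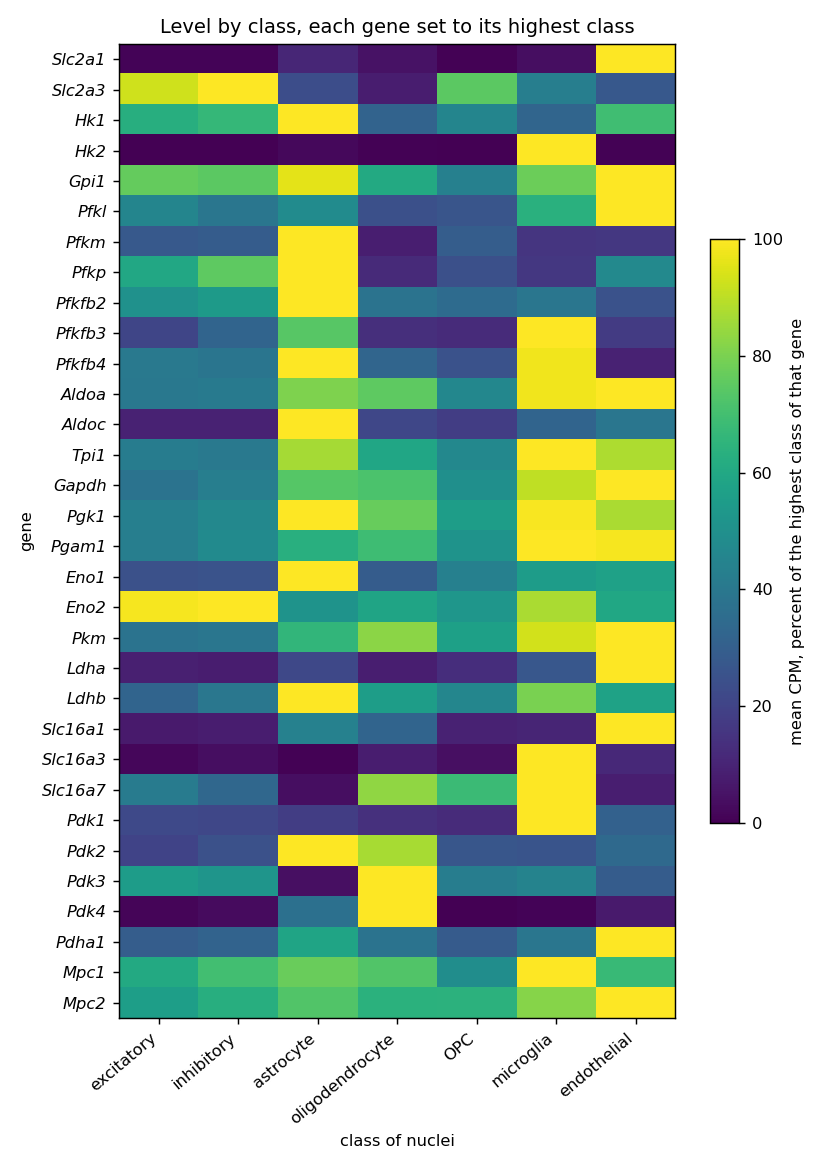
Mean level of each of the 32 genes (rows) in 7 classes of nuclei (columns), as a percent of the class in which that gene is highest; colour runs from 0 (dark) to 100 (yellow), over 6 libraries. Hk2 and Slc16a3 stand out in microglia, Slc2a1 in endothelial cells and Pfkm, Aldoc and Eno1 in astrocytes, while Mpc1 and Mpc2 are spread over all classes.

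Glucose enters through the facilitative transporters GLUT1 (Slc2a1), the transporter of the blood-brain barrier and glia, and GLUT3 (Slc2a3), the main neuronal form. Slc2a1 in endothelial cells stood at 645, 961 and 1727 CPM in PHD1-/- (replicates 1, 2, 3), against 411, 969 and 1782 CPM in PHD1+/+. Every one of these values exceeded every value of any other class, and replicate 1 was the lowest in both genotypes. After endothelial cells (1083 ± 561 CPM; here and below SD, n = 6 libraries) came astrocytes (115.9 ± 24.3), oligodendrocytes (52.4 ± 7.79) and microglia (39.3 ± 12.7), of which oligodendrocytes and microglia overlapped, and then inhibitory neurons, excitatory neurons and OPC, with means of 10.2, 8.52 and 8.02 CPM that also overlapped. Slc2a3 ran the other way, with means of 105.4 CPM in inhibitory and 97.9 in excitatory neurons, 78.8 in OPC, 45.2 in microglia, 24.8 in astrocytes and 8.26 in oligodendrocytes. Inhibitory and excitatory neurons overlapped, while OPC lay above every microglial value. Slc2a3 made 90.9% ± 4.98 of the summed Slc2a1 and Slc2a3 UMIs in OPC. The Slc2a3 share was 91.9% ± 2.70 in neurons, 18.0% ± 5.28 in astrocytes, 13.6% ± 1.86 in oligodendrocytes and 53.1% ± 11.6 in microglia.

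Such shares were compared within libraries for 8 isoform families and 6 pairs of classes, 48 comparisons in all, by an exact two-sided sign-flip permutation test over the 6 libraries, whose smallest p is 0.031. Of the 48, 31 passed after Benjamini-Hochberg adjustment (adjusted p = 0.0484, exact permutation, each with all 6 libraries in the same direction), and with so small a margin the number of calls turns on how many comparisons reach the smallest p. For Slc2a3 5 of 6 passed, the exception being astrocytes against oligodendrocytes (difference 4.37 points, adjusted permutation p = 0.220). Neurons minus astrocytes gave 73.8 points, 69.4 in replicate 1 and 76.1 in replicates 2 and 3.

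Hexokinase traps glucose as glucose 6-phosphate; Hk1 is the general form of brain and Hk2 the inducible form of muscle, tumours and activated immune cells. Hk2 was highest in microglia. It reached 584, 339 and 426 CPM in microglia of PHD1-/- replicates 1, 2 and 3 and 534, 382 and 414 CPM in PHD1+/+, so the genotypes overlapped. In other classes it lay at 9.96 ± 4.41 CPM in astrocytes, 1.95 ± 1.20 in oligodendrocytes and 0.715 ± 0.955 in neurons. These are 2.23%, 0.437% and 0.16% of the microglial mean. The Syt1 shares (1.10 to 5.87% over glia and libraries) belong to a neuronal transcript, and neurons held 97148434 UMIs against 3434145 in microglia. They therefore do not measure free microglial RNA, whose part in these Hk2 levels was not tested. In OPC 0 Hk2 UMIs were seen among 2682072, which allows up to 1.12 CPM over all 6 libraries (3 counts; counting error only). Hk1 was highest in astrocytes (100.5 ± 12.8 CPM) and had means of 69.8 CPM in endothelial cells, 67.1 and 62.9 CPM in inhibitory and excitatory neurons, 45.6 in OPC, 32.6 in microglia and 31.98 in oligodendrocytes, where the last pair overlapped.

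The Hk2 share of hexokinase UMIs was 0.886% ± 1.10 in neurons, 9.09% ± 3.86 in astrocytes, 5.82% ± 3.34 in oligodendrocytes and 93.0% ± 1.49 in microglia. Neurons minus microglia gave -92.1 points and astrocytes minus microglia -83.9 (adjusted p = 0.0484 each, exact permutation). Astrocytes and oligodendrocytes differed by 3.27 points, which did not pass (adjusted permutation p = 0.113). Border macrophages, the immune cells of the meninges and vessels, held 16 Hk2 UMIs in 80 nuclei; 4 of their libraries lay at 138 to 165 CPM and replicate 1 of both groups at 0 on very few UMIs. Fibroblasts (933 nuclei) held Hk2 too, at 57.3, 80.3 and 57.3 CPM in PHD1-/- (replicates 1, 2, 3), against 89.7, 94.98 and 40.8 CPM in PHD1+/+, and their Hk2 share was 48.7% ± 4.20. The genotypes overlapped there.

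**Figure D2:**
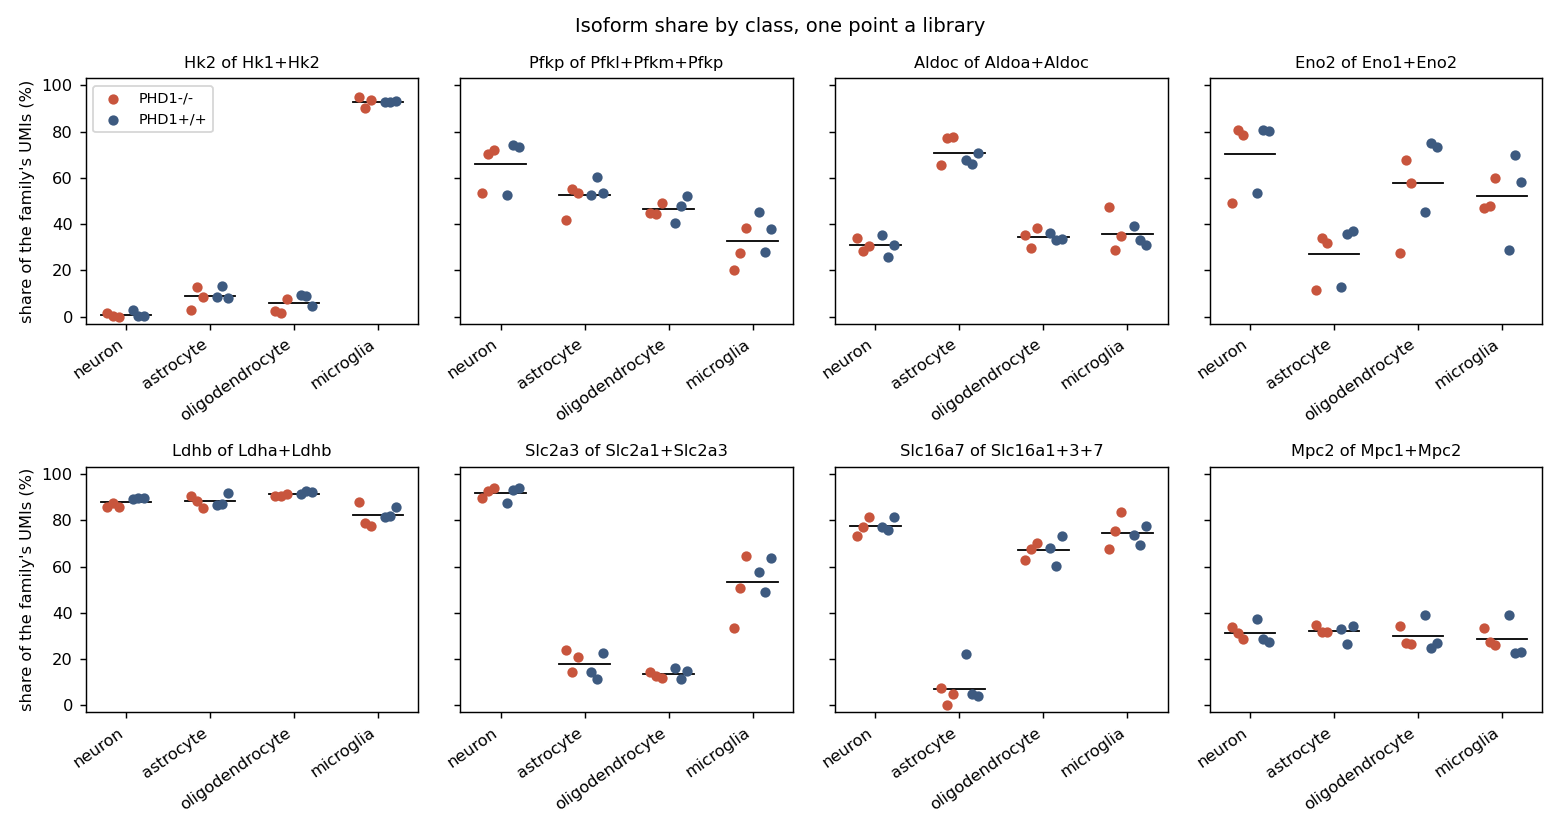
Share of a family's UMIs (vertical axis, percent) held by 1 isoform in neurons, astrocytes, oligodendrocytes and microglia; each point is a library, PHD1-/- left of PHD1+/+, and the line is the mean of 6. Hk2 makes 90.4 to 94.8% of hexokinase UMIs in microglia and at most 13.5% in the other 3 classes, Slc16a7 is at most 22.2% in astrocytes, and the points of the genotypes mix in most panels.

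Glucose 6-phosphate isomerase (Gpi1) turns it into fructose 6-phosphate. Its levels were 128.5 ± 75.5 CPM in endothelial cells, 123 ± 14.02 in astrocytes, 99.5 ± 14.1 in microglia, 98.3 ± 18.8 and 96.3 ± 15.3 in excitatory and inhibitory neurons, 77.8 ± 7.45 in oligodendrocytes and 56.0 ± 13.9 in OPC. In cholinergic neurons, a small class of 165 nuclei that includes motor neurons, it stood at 230, 187 and 146 CPM in PHD1-/- (replicates 1, 2, 3), against 218, 180 and 134 CPM in PHD1+/+. The genotypes overlapped there, and replicate 1 was highest in both.

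Phosphofructokinase makes the committed step, with a muscle (Pfkm), a liver (Pfkl) and a platelet (Pfkp) form. Astrocytes had the most Pfkm: 147, 133 and 132 CPM in PHD1-/- (replicates 1, 2, 3), against 114, 115 and 156 CPM in PHD1+/+, while no other class had a mean above 39.0 CPM. Pfkp had its highest means in astrocytes (182 ± 31.0 CPM), inhibitory neurons (137 ± 13.7) and excitatory neurons (109 ± 19.1). Endothelial cells (85.3 ± 28.9) overlapped with excitatory neurons. Lower means were found in OPC (44.5 ± 13.7), microglia (29.5 ± 16.3) and oligodendrocytes (21.6 ± 6.54). Pfkl was highest in endothelial cells (59.97 ± 9.76) and next in microglia (38.0 ± 4.37).

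The Pfkp share of the 3 forms was 66.1% ± 10.2 in neurons, 52.7% ± 6.09 in astrocytes, 46.5% ± 4.20 in oligodendrocytes and 32.9% ± 9.29 in microglia, and 4 of 6 pairs passed. The neuronal share lay at 53.3% in PHD1-/- and 52.7% in PHD1+/+ in replicate 1 but at 70.4 to 74.4% in the other 4 libraries, and neurons minus astrocytes was 5.86 points in replicate 1 and 17.1 points in replicates 2 and 3.

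Pfkfb2, Pfkfb3 and Pfkfb4 make and break a fructose bisphosphate that activates phosphofructokinase, and their leading classes differed. Pfkfb3, the form with the strongest kinase activity, was highest in microglia (119.9 ± 40.03 CPM) and astrocytes (88.6 ± 23.4), which overlapped, and had means of 38.5 and 24.9 CPM in inhibitory and excitatory neurons. Pfkfb4 in astrocytes (85.3 ± 10.8) and microglia (83.3 ± 11.8) differed by less than the spread, above 34.4 in excitatory neurons, and reached 73.9 ± 14.2 CPM in cholinergic neurons. Pfkfb2 had its highest mean in astrocytes (59.3 ± 26.5), with a wide spread.

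Aldolase splits fructose 1,6-bisphosphate; Aldoc is the brain form and a marker of astrocytes, Aldoa the general form. Aldoc in astrocytes stood at 436.5, 328.5 and 397 CPM in PHD1-/- (replicates 1, 2, 3), against 790, 311.5 and 423 CPM in PHD1+/+. PHD1+/+ replicate 1 was far above the rest and the other values overlapped between genotypes. The Aldoc share of aldolase UMIs was 30.9% ± 3.58 in neurons, 70.8% ± 5.45 in astrocytes, 34.4% ± 2.93 in oligodendrocytes and 35.7% ± 6.78 in microglia. Neurons minus astrocytes was -39.9 points (adjusted p = 0.0484, exact permutation), negative in all 6 libraries. Neurons against oligodendrocytes passed by -3.54 points only.

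The next 3 enzymes, triose phosphate isomerase (Tpi1), glyceraldehyde 3-phosphate dehydrogenase (Gapdh) and phosphoglycerate kinase (Pgk1), have no second form here, nor has phosphoglycerate mutase (Pgam1). Their class means were highest in microglia, endothelial cells, astrocytes and microglia, and lowest in 1 of the neuron classes for all 4; Gapdh ran between 68.8 and 181 CPM and Pgk1 between 32.2 and 74.8. Neighbouring classes overlapped throughout. The annotation holds 77 near-identical copies of Gapdh and 4 of Pgk1 elsewhere in the genome, and the treatment of reads shared with these copies is not stated, so both levels are uncertain.

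Enolase converts 2-phosphoglycerate; Eno2 is the neuron-specific form of the textbooks and Eno1 the glial one. Eno2 had 57.0, 93.7 and 86.9 CPM in neurons of PHD1-/- replicates 1, 2 and 3 and 75.3, 101.1 and 90.3 CPM in PHD1+/+, so replicate 1 was lowest in each genotype. Eno1 went the opposite way in astrocytes, with 177, 97.7 and 106 CPM in PHD1-/- and 281, 78.2 and 85.1 CPM in PHD1+/+. By class, mean Eno2 was 83.3 CPM in inhibitory neurons, 82.0 in excitatory neurons and 72.8 in microglia, and the last 2 overlapped. Its means in the other classes ran from 42.9 CPM in astrocytes to 49.7 in endothelial cells. The part of free neuronal RNA in the glial Eno2 levels was not tested. The Eno2 share was 70.5% ± 14.98 in neurons, 27.1% ± 11.7 in astrocytes, 57.9% ± 18.5 in oligodendrocytes and 52.0% ± 14.2 in microglia, and 5 of 6 pairs passed.

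Most of that spread lay between replicates. In neurons the Eno2 share was 49.1% in PHD1-/- and 53.4% in PHD1+/+ in replicate 1 and 78.7 to 80.9% in the other 4 libraries, yet neurons minus astrocytes was 39.0 points in replicate 1 and 45.6 in replicates 2 and 3. Eno1 has 3 near-identical copies, of which Eno1b held 108 UMIs against 5912 for Eno1.

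Pyruvate kinase (Pkm), which yields pyruvate and ATP, had means from 102.9 CPM in excitatory neurons to 269.5 in endothelial cells, 252 in microglia and 223 in oligodendrocytes, and the last 3 overlapped. Its M1 and M2 splice forms cannot be told apart from a count per gene. Lactate dehydrogenase is built from A subunits (Ldha), which favour lactate formation, and B subunits (Ldhb), which favour its use. Ldha was highest in endothelial cells, above the next class in all 6 libraries, at 168 ± 125 CPM against 45.7 ± 24.7 in microglia and 36.6 ± 16.8 in astrocytes, and had means of 13.4 to 22.1 CPM in neurons, oligodendrocytes and OPC. Ldhb was highest in astrocytes (272 ± 92.5), again in all 6 libraries, then in microglia (218 ± 118).

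Unlike the hexokinase share, the Ldhb share was nearly alike in the 4 classes tested: 87.9% ± 1.96 in neurons, 88.3% ± 2.53 in astrocytes, 91.5% ± 0.968 in oligodendrocytes and 82.3% ± 4.02 in microglia. Neurons and astrocytes differed by -0.42 points (SD of the 6 differences 2.88; adjusted permutation p = 0.766). Small differences did pass: neurons minus oligodendrocytes was -3.62 points and oligodendrocytes minus microglia 9.25 points. Endothelial cells lay lower, at 48.1% ± 18.3, on as few as 8 UMIs in 1 library, and were not among the tested pairs.

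Lactate and pyruvate cross membranes through monocarboxylate transporters: MCT1 (Slc16a1) of glia and endothelium, MCT4 (Slc16a3), the lactate exporter of highly glycolytic cells, and MCT2 (Slc16a7), the high-affinity form usually assigned to neurons. Slc16a1 was highest in endothelial cells (178 ± 91.1 CPM), then astrocytes (78.1 ± 33.1) and oligodendrocytes (57.2 ± 20.5), with means of 12.9 to 18.5 CPM in the other 4 classes. Slc16a3 was highest in microglia, at 53.1, 26.2 and 21.0 CPM in PHD1-/- (replicates 1, 2, 3), against 18.6, 41.0 and 25.4 CPM in PHD1+/+. All 6 values exceeded every value of the other classes, and the genotypes overlapped.

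By CPM, Slc16a7 was not highest in neurons. CPM is a share of the UMIs of a class, and neurons held 97148434 of the 146898504 UMIs. A lower CPM there need not mean a smaller part of all Slc16a7 UMIs, nor fewer in each nucleus. Microglia (143.5 ± 15.2 CPM), oligodendrocytes (120 ± 27.6) and OPC (98.1 ± 31.9) all had higher means than excitatory (59.5 ± 7.66) and inhibitory neurons (47.8 ± 6.18), and OPC exceeded excitatory neurons in all 6 libraries. Astrocytes were lowest, with 14 UMIs in all and 6.66, 0 and 3.44 CPM in PHD1-/- (replicates 1, 2, 3), against 10.4, 6.99 and 2.94 CPM in PHD1+/+, 3.53% of the microglial mean. The Slc16a7 share of the 3 transporters was 77.7% ± 3.15 in neurons, 7.25% ± 7.72 in astrocytes, 67.1% ± 4.78 in oligodendrocytes and 74.6% ± 5.81 in microglia. Neurons minus astrocytes gave 70.4 points (adjusted p = 0.0484, exact permutation), while neurons minus microglia, at 3.12 points, did not pass (adjusted permutation p = 0.113). The row of Slc16a1 overlaps 2 other annotated genes on the same strand, and reads of these may not be separable from its own.

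**Figure D3:**
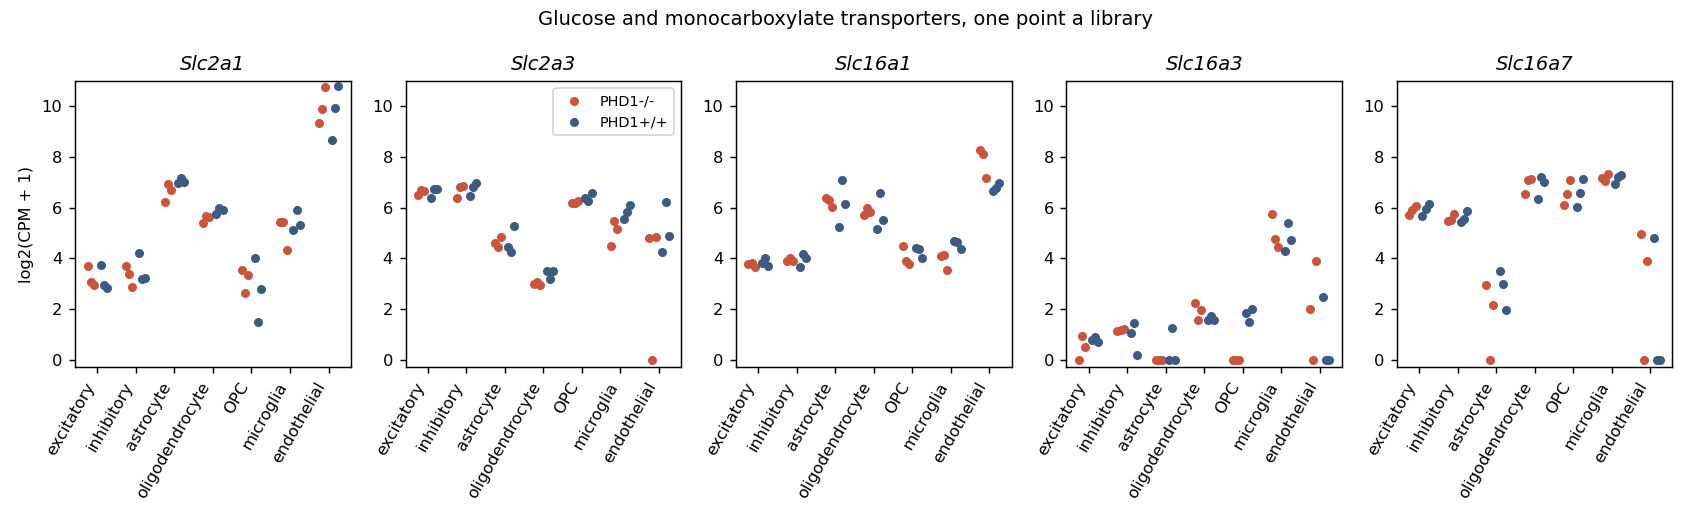
Level of the glucose transporters Slc2a1 and Slc2a3 and of the monocarboxylate transporters Slc16a1, Slc16a3 and Slc16a7, as log2(CPM + 1), in 7 classes; each point is a library, PHD1-/- left of PHD1+/+. Slc2a1 and Slc16a1 peak in endothelial cells, Slc16a3 in microglia, and Slc16a7 is lowest in astrocytes and endothelial cells.

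Pyruvate enters mitochondria through a carrier made of Mpc1 and Mpc2 and is oxidised by pyruvate dehydrogenase (Pdha1 is its catalytic alpha subunit), which the kinases Pdk1 to Pdk4 switch off. Mpc2 made 31.2% ± 3.75 of the carrier's UMIs in neurons, 32.01% ± 2.89 in astrocytes, 29.8% ± 5.58 in oligodendrocytes and 28.5% ± 6.48 in microglia, and 0 of 6 pairs passed (smallest adjusted permutation p = 0.113). Pdha1 had means of 18.4 to 37.8 CPM outside endothelial cells.

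The 4 kinases had 3 different leading classes. Pdk1, known to be induced by hypoxia, was highest in microglia, at 143, 105 and 140 CPM in PHD1-/- (replicates 1, 2, 3), against 140, 132 and 115 CPM in PHD1+/+. No other class had a mean above 40.3 CPM, although endothelial cells overlapped with microglia in 1 library. Pdk2 was highest in astrocytes (59.3 ± 31.0) and oligodendrocytes (51.5 ± 18.5), which overlapped. Pdk3 was highest in oligodendrocytes (61.0 ± 15.5), above every value of the next class, and had 10 UMIs in all in astrocytes (2.46 ± 1.98).

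Pdk4, the form raised by fasting and fatty acids in other tissues, had its highest means in oligodendrocytes and astrocytes, against at most 1.49 CPM in the other 5 classes. Oligodendrocytes had 2.67, 7.17 and 39.2 CPM in PHD1-/- (replicates 1, 2, 3), against 5.09, 9.43 and 60.8 CPM in PHD1+/+. The replicates 3 of both genotypes were high and the other 4 libraries low, and the genotypes overlapped. Within each same-numbered pair PHD1-/- was the lower (log2 fold change -0.58 with the replicate number as a block, edgeR adjusted p = 0.569); the labels do not say what the libraries numbered 3 share. In astrocytes the mean was 7.69 ± 4.58 CPM and in OPC 0 UMIs were seen.

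Within microglia and astrocytes the levels varied between clusters, which is given as a description, since the clusters were drawn from the same nuclei. Microglia of a cluster led by Ccl4 and Lpl (321 nuclei) had 97.4 CPM of Slc2a1 (exact 95% Poisson interval 72.0 to 129, counting error only), 65.6 of Slc16a3 (45.1 to 92.1) and 205 of Pfkfb3 (167 to 248), against 22.2 (14.1 to 33.4), 17.4 (10.3 to 27.5) and 107 (88.3 to 129) in a cluster led by Siglech (689 nuclei). In replicates 2 and 3, Slc2a1 stood at 84.9 and 98.9 CPM for PHD1-/-, against 113 and 105.4 CPM for PHD1+/+, in the first of these clusters, and at 17.7 to 26.1 CPM in the same 4 libraries in the second, with no overlap between clusters. Hk2 had 322 (274 to 375) and 393 CPM (356 to 433.5) in them. Astrocytes of a cluster led by A2m, Myoc and C3 (352 nuclei) had 184 CPM of Slc16a1 (155 to 218) and 255 of Aldoc (220 to 293), against 46.4 (36.6 to 58.1) and 419 (388 to 451) in a cluster led by Slc7a10 and Atp13a4 (642 nuclei). The second cluster held 11 nuclei of PHD1-/- replicate 1 and 3 of PHD1+/+ replicate 1, while the first held more from both. Without it, in the libraries with enough nuclei, Slc16a1 stood at 204 and 180 CPM (PHD1-/- replicates 2, 3) and 243 CPM (PHD1+/+ replicate 2) in the first, against 40.1 to 60.9 CPM in the second. Aldoc stood at 165.5, 248 and 243 CPM in the first in those libraries, against 387 to 461 CPM in the second. In replicate 1 the first cluster had 114 CPM of Slc16a1 and 286 of Aldoc in PHD1-/-, and 80.95 and 421 CPM in PHD1+/+, so for Aldoc the clusters overlapped once replicate 1 was counted.

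Between genotypes no gene of the set was called without a block for the replicate number. Sums of UMIs for each class of each library were taken, and PHD1-/- was compared with PHD1+/+ by the quasi-likelihood test of edgeR, with Benjamini-Hochberg adjustment over all genes tested and a threshold of 0.05, in all nuclei and in 7 classes. In each of the 8 comparisons 0 genes of the set passed, as did 0% of all genes, and DESeq2 also called 0 of the set. At an unadjusted p of 0.05 or less edgeR counted 0 of the 32 genes in all nuclei (0.497% of all genes), 0 of 24 in astrocytes (0.696%), 1 of 30 in oligodendrocytes (0.79%), 1 of 21 in OPC (1.17%), 0 of 29 in microglia (0.657%), 1 of 29 in excitatory neurons (0.498%), 0 of 29 in inhibitory neurons (0.396%) and 1 of 15 in endothelial cells (0.89%). DESeq2 counted 1 gene of the set each in oligodendrocytes and excitatory neurons. With the replicate number as a block, edgeR counted more at that unadjusted p, in the set and among all genes: 7 of 32 in all nuclei (5.95% of all genes), 2 of 24 in astrocytes (4.67%), 10 of 30 in oligodendrocytes (7.8%), 4 of 21 in OPC (5.74%), 1 of 29 in microglia (4.67%), 7 of 29 in excitatory neurons (8.28%), 8 of 29 in inhibitory neurons (8.41%) and 1 of 15 in endothelial cells (3.7%). On counts simulated at this depth and spread, the test without a block called 35% of genes changed by 2 on the log2 scale in all nuclei. In astrocytes it called 77% and in oligodendrocytes 73%, but only 3%, 11% and 3% of those changed by 1. The changed genes were drawn at random from all genes tested, and changes under 1 were not simulated. These rates are thus not those of the set, and the absence of calls does not show that the set was unchanged.

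Over all nuclei 25 of the 32 genes had a negative and 7 a positive log2 fold change (PHD1-/- over PHD1+/+), with a median of -0.17 against -0.01 for all 19303 genes tested. In sums over all nuclei, fewer cells of a type and less RNA per cell cannot be told apart. These sums also hold the 2524 unnamed nuclei, 1399 of them from PHD1+/+ replicate 1, whose part was not tested. The range ran from -0.75 for Aldoc to 0.15 for Gpi1. Besides Gpi1 the positive ones were Pfkl, Pfkfb3, Slc16a3, Slc16a7, Pdk1 and Pdk3, all between 0.01 and 0.10. Aldoc and 7 other genes lay at -0.44 or below, namely Aldoa (-0.59), Tpi1 (-0.44), Gapdh (-0.53), Pgk1 (-0.55), Pgam1 (-0.55), Pkm (-0.50) and Ldhb (-0.51). Without PHD1+/+ replicate 1, 6 of these 8 were positive, namely Aldoc (0.58), Gapdh (0.35), Ldhb (0.27), Tpi1 (0.24), Aldoa (0.16) and Pkm (0.04), and Pgk1 and Pgam1 were at -0.10 and -0.27.

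The median changed sign without 1 library. PHD1+/+ replicate 1 held the highest value of 19 of the 32 genes, and without it 18 genes were positive and 14 negative, with a median of 0.03. Ribosomal protein and mitochondrial transcripts moved with the set: of the ribosomal protein genes 77 of 78 tested were negative, with a median of -0.50, and of the 13 genes of the mitochondrial genome 12 were negative, with a median of -0.46. Ribosomal protein genes took 1.06%, 0.502% and 0.494% of UMIs in PHD1-/- (replicates 1, 2, 3), against 1.75%, 0.5405% and 0.567% in PHD1+/+. Their part in the result was not tested.

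**Figure D4:**
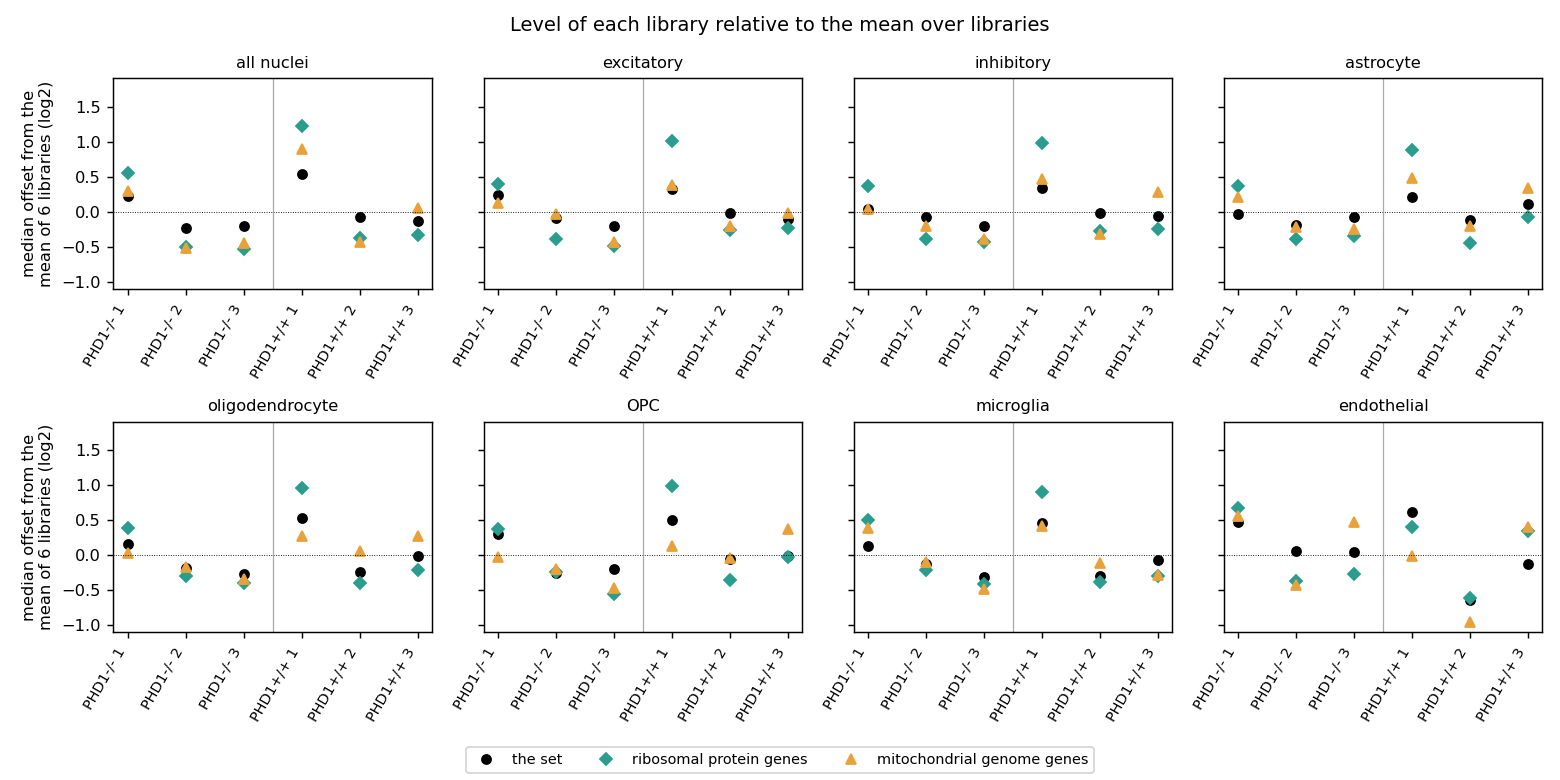
Median offset of each library from the mean of the 6 libraries (vertical axis, log2) for the set (black circles), ribosomal protein genes (green diamonds) and mitochondrial genome genes (orange triangles), in all nuclei and in 7 classes, with PHD1-/- libraries left of PHD1+/+ libraries. In all nuclei the set lies at 0.225, -0.228 and -0.200 in PHD1-/- and at 0.545, -0.0786 and -0.136 in PHD1+/+, with PHD1+/+ replicate 1 the highest in 8 of 8 panels for the set.

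The genes with the smallest p over all nuclei were Pdha1, Pgam1 and Pgk1. Pdha1 had 19.0, 22.7 and 22.3 CPM in PHD1-/- (replicates 1, 2, 3), against 29.5, 25.3 and 27.3 CPM in PHD1+/+ (log2 fold change -0.36, SE 0.17, edgeR adjusted p = 1). It was lower in every PHD1-/- library, as was Mpc1, with 155.5, 151 and 155.4 CPM in PHD1-/- against 192, 162 and 163 CPM in PHD1+/+. These 2 of 32 genes had groups that did not overlap, and 2.02% of all genes did so in this direction; 0 of 32 were higher without overlap (1.98%). Pgam1 (61.2, 49.8 and 40.9 CPM in PHD1-/-, 99.9, 60.01 and 61.95 CPM in PHD1+/+) and Pgk1 (47.9, 34.9 and 33.4 against 86.4, 38.4 and 44.5 CPM) were lower in each PHD1-/- replicate than in the PHD1+/+ replicate of the same number, but their groups overlapped. Pgk1, Pdha1 and Pdk3 lie on the X chromosome, and the replicate 1 libraries held transcripts of both sexes; the part of this in the result was not tested.

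**Figure D5:**
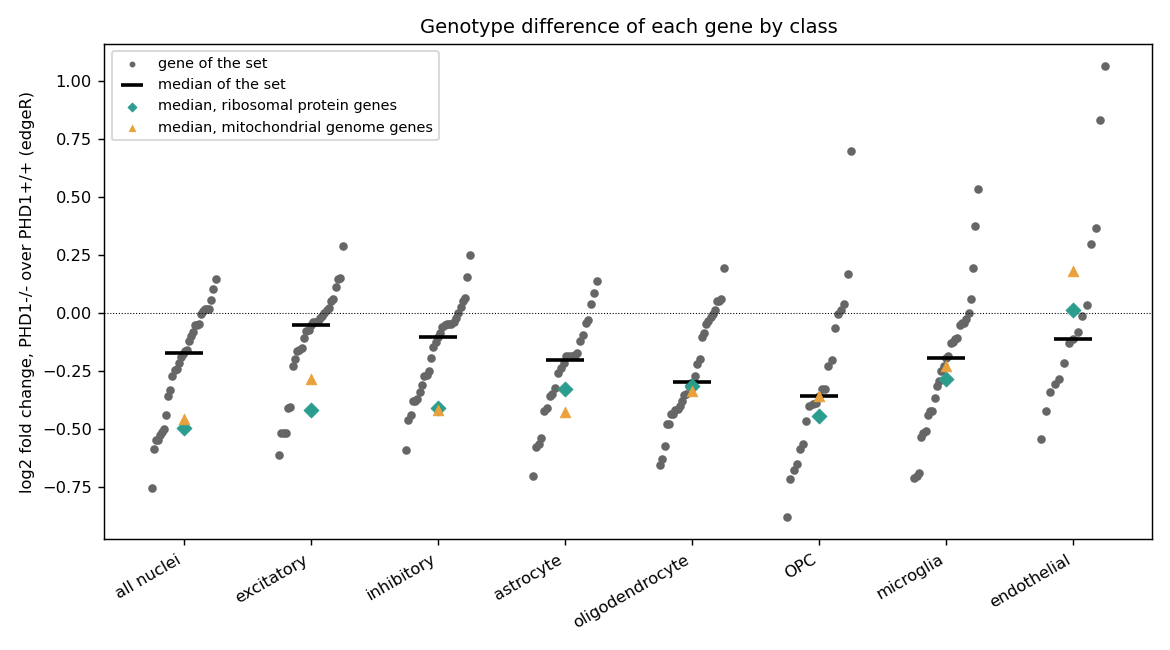
Log2 fold change of each gene of the set (grey points, PHD1-/- over PHD1+/+, edgeR) in all nuclei and 7 classes, with the median of the set (black bar) and the medians of ribosomal protein genes (green diamonds) and mitochondrial genome genes (orange triangles). All medians lie below 0 except those of the ribosomal and mitochondrial genes in endothelial cells, and 0 points passed the test.

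In astrocytes 24 genes of the set were tested, of which 21 were negative (median -0.20, against -0.01 for all genes; ribosomal protein genes -0.33). Pgk1, Slc2a1 and Aldoa had the smallest p. Slc2a1 had 73.3, 121 and 104 CPM in PHD1-/- (replicates 1, 2, 3), against 125, 142.5 and 129 CPM in PHD1+/+ (log2 fold change -0.42, SE 0.26, edgeR adjusted p = 0.9998), and it was the only gene of the 24 with no overlap, as were 2.65% of all genes in this direction; 0 of the 24 were higher without overlap (2.71% of all genes). Pgk1 had 49.98, 47.4 and 77.4 CPM in PHD1-/- against 114, 68.5 and 91.0 in PHD1+/+, and Aldoa had 230, 97.7 and 114 against 379, 159 and 176; both overlapped.

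In oligodendrocytes 25 of 30 genes were negative (median -0.30, against -0.01; ribosomal protein genes -0.32), and without PHD1+/+ replicate 1 the median was 0.05. Groups did not overlap, with PHD1-/- lower, for Eno2, Pdha1, Slc2a1 and Slc2a3, 4 of 30 genes beside 3.43% of all genes, and with PHD1-/- higher for 0 of 30 (2.31%). Eno2 had 27.7, 44.5 and 40.3 CPM in PHD1-/- (replicates 1, 2, 3), against 65.0, 52.8 and 61.8 CPM in PHD1+/+ (log2 fold change -0.66, SE 0.23, edgeR adjusted p = 0.9998). Pdha1 had 19.7, 21.2 and 22 CPM in PHD1-/- and 23.9, 28.9 and 31.9 CPM in PHD1+/+. Slc2a1 had 41.1, 49.9 and 48.5 CPM in PHD1-/- and 52.8, 63.0 and 58.9 CPM in PHD1+/+. Snap25, a neuronal transcript, reached between 20.7 and 59.6% of its neuronal level in oligodendrocytes, highest in PHD1+/+ replicate 1; the part of neuronal RNA in the Eno2 difference was not tested.

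In OPC 17 of 21 genes were negative (median -0.36, against -0.02; ribosomal protein genes -0.44). Aldoa had 88.8, 64.6 and 83.7 CPM in PHD1-/- (replicates 1, 2, 3), against 212, 79.6 and 132 CPM in PHD1+/+ (log2 fold change -0.88, SE 0.39, edgeR adjusted p = 0.9998). Its groups overlapped, while those of Pfkm did not (31.97, 26.2 and 32.8 CPM in PHD1-/-, 56.2, 36.2 and 50.9 CPM in PHD1+/+), 1 of 21 genes beside 2.19% of all genes, with 0 of 21 in the other direction (3.62%). Pkm, the third by p, had 167, 106.5 and 106 CPM in PHD1-/- and 232, 130 and 180 CPM in PHD1+/+.

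In microglia 25 of 29 genes were negative (median -0.20, against -0.03; ribosomal protein genes -0.29), and the median without PHD1+/+ replicate 1 was 0.07. Slc2a3 had 21.2, 43.7 and 35.1 CPM in PHD1-/- (replicates 1, 2, 3), against 46.6, 56.2 and 68.4 CPM in PHD1+/+ (log2 fold change -0.71, SE 0.32, edgeR adjusted p = 1). Slc16a1 had 15.9, 16.4 and 10.5 CPM in PHD1-/- and 24.8, 23.8 and 19.5 CPM in PHD1+/+ (-0.70, SE 0.40), on 64 UMIs in all. Both were lower in every PHD1-/- library, 2 of 29 genes beside 2.15% of all genes; 0 of 29 were higher in every one (2.96%). Pfkp, the third by p, had 21.2, 18.6 and 26.3 CPM in PHD1-/- and 62.1, 21.6 and 27.4 CPM in PHD1+/+, of which PHD1+/+ replicate 1 stood apart.

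In excitatory neurons 21 of 29 genes were negative (median -0.05, against -0.01; ribosomal protein genes -0.42). Pgk1 had 27.7, 26.3 and 21.9 CPM in PHD1-/- (replicates 1, 2, 3), against 51.3, 32.5 and 33.3 CPM in PHD1+/+ (log2 fold change -0.62, SE 0.23, edgeR adjusted p = 0.9998), with no overlap, 1 of 29 genes beside 2.36% of all genes, and 0 of 29 were higher without overlap (2.28%). Pgam1 had 47.7, 38.8 and 29.5 CPM in PHD1-/- and 57.9, 49.9 and 46.2 CPM in PHD1+/+, and Gpi1 had 128, 90.9 and 105 against 99.9, 95.7 and 70.4. Gpi1 was the gene of this class with the largest positive value, 0.29 (SE 0.19).

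In inhibitory neurons 24 of 29 genes were negative (median -0.10, against -0.01; ribosomal protein genes -0.41). Pgk1 again did not overlap, with 32.7, 31.9 and 26.4 CPM in PHD1-/- (replicates 1, 2, 3), against 46.2, 35.9 and 37.1 CPM in PHD1+/+ (log2 fold change -0.38, SE 0.18, edgeR adjusted p = 1), 1 of 29 beside 2.33% of all genes, and 0 of 29 were higher without overlap (2.23%). Pgam1 had 50.6, 46.1 and 36.0 CPM in PHD1-/- and 63.5, 58.6 and 49.5 CPM in PHD1+/+, and Pkm had 105, 92.0 and 72.5 against 169.5, 102.8 and 95.4.

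With the replicate number as a block, 1 gene of the set was called in any comparison: Aldoa in inhibitory neurons (log2 fold change -0.47, SE 0.09, edgeR adjusted p = 0.0209), where the fit called 58 genes in all (0.377%). In the other comparisons it called 0 of the set, beside 0.0946% of all genes in excitatory neurons, 0.0342% in endothelial cells, 0.0151% in astrocytes, 0.0131% in OPC and 0% in the rest. With a term for replicate 1 against replicates 2 and 3 in place of the block, 0 of the set were called there (smallest edgeR adjusted p of the set 0.101), and with replicates 2 and 3 only also 0 (0.802). Aldoa had 113, 65.0 and 54.2 CPM in PHD1-/- (replicates 1, 2, 3), against 197, 83.1 and 70.3 CPM in PHD1+/+. It was lower in PHD1-/- at each of the 3 replicate numbers, which the labels do not tie to pairs, and the groups overlapped. Without the block its log2 fold change was -0.59 (edgeR adjusted p = 1), and without PHD1+/+ replicate 1 it was -0.04. The nearest other was Ldhb in excitatory neurons (-0.44, SE 0.09, edgeR adjusted p = 0.0895 with the block).

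Endothelial cells were the thinnest class, with 131, 11 and 53 nuclei in PHD1-/- (replicates 1, 2, 3), against 230, 32 and 26 in PHD1+/+, and 15 genes of the set were tested. Of these 10 were negative (median -0.11, against -0.04), with the ribosomal protein genes near 0 (median 0.01). Without PHD1+/+ replicate 1 the direction turned, with 10 of 12 genes positive and a median of 0.70. Slc16a1 had 311, 275 and 145 CPM in PHD1-/- and 101, 110 and 124.5 CPM in PHD1+/+ (log2 fold change 1.06, SE 0.47, edgeR adjusted p = 0.9998). Ldha had 188, 412 and 117.5 CPM in PHD1-/- and 112, 73.1 and 105.4 CPM in PHD1+/+ (0.83, SE 0.51). Both were higher in every PHD1-/- library, 2 of 15 genes beside 2.46% of all genes in this direction, and 0 of 15 were lower without overlap (2.57%); the values of PHD1-/- replicate 2 rest on 14563 UMIs in all. Mpc1, the third by p, overlapped, with 140, 68.7 and 152 CPM in PHD1-/- against 227, 219 and 115 CPM in PHD1+/+.

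Whether the genotype difference of a gene varied between classes was tested by the class by genotype interaction in edgeR over the 7 classes and 14193 genes. It called 0 of the 32 genes, with 0 at an unadjusted p of 0.05 or less, beside 0% and 1.66% of all genes. Slc16a1 had the smallest p of the set, 0.117 (edgeR adjusted p = 1), so its opposite signs in endothelial cells and microglia were not shown to differ.

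The isoform shares were compared between genotypes in 56 comparisons of 8 families and 7 classes by an exact two-sided permutation test of 3 libraries against 3, which cannot go below p = 0.10. After adjustment 0 passed (smallest adjusted permutation p = 1), and 3 of the 56 reached the smallest p. With no genotype difference, up to a share of 0.10 of comparisons would reach it, and 3 of 56 is a smaller share. The 3 are described below only because they had the smallest p. The Ldhb share in excitatory neurons was 81.1%, 84.3% and 82.1% in PHD1-/- (replicates 1, 2, 3), against 88.3%, 87.8% and 87.6% in PHD1+/+. The difference of means was -5.39 points, larger than the spread within either group (SD 1.66 in PHD1-/- and 0.357 in PHD1+/+). In oligodendrocytes it was -1.43 points, where the share was 90.8% ± 0.649 for PHD1-/- libraries and 92.2% ± 0.618 for PHD1+/+ libraries (SD, n = 3 each). The third was the Aldoc share in OPC, 51.0%, 46.4% and 45.9% in PHD1-/- and 40.3%, 37.1% and 36.2% in PHD1+/+, on as few as 51 aldolase UMIs in a library. The Hk2 share in microglia was 94.8%, 90.4% and 93.8% in PHD1-/- and 93.0%, 92.7% and 93.4% in PHD1+/+.

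In the wider pathway 0 genes were called. Of 52 further genes of glycolysis, glycogen, the pentose shunt, pyruvate dehydrogenase, the malate-aspartate and glycerophosphate shuttles and oxygen sensing, 49 were tested over all nuclei, of which 27 were negative and 22 positive, 0 were called by edgeR and 1 had an unadjusted p of 0.05 or less. That was Got1, the cytosolic aspartate aminotransferase of the malate-aspartate shuttle, with 48.7, 52.2 and 44.5 CPM in PHD1-/- (replicates 1, 2, 3), against 78.6, 59.5 and 61.5 CPM in PHD1+/+ (log2 fold change -0.46, SE 0.17, edgeR adjusted p = 1). Gapdhs, a glyceraldehyde 3-phosphate dehydrogenase known from sperm, had -0.38 (SE 0.17). Among the positive ones was Pdhx, a subunit of the pyruvate dehydrogenase complex, which had 0.18 (SE 0.15).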

How the data were processed

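Single-nucleus 3' RNA-seq libraries, 3 PHD1-/- and 3 PHD1+/+, were used. The authors deposited raw UMI counts for each gene in each nucleus. Per the file headers, Cell Ranger 5.0.1 made them, while the list of tools in the submitters' processing notes has Cell Ranger 5.0.2 and Scanpy 1.8.1, with mm10 as the build. The treatment of intron reads is not stated there. The deposited features and barcodes lists were used to name rows and nuclei.

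Kept nuclei had 500 UMIs or more, 300 genes or more and less than 5% of UMIs from the mitochondrial genome; Scrublet doublets were removed (in replicate 1 of both groups the caller marked under 0.5%, so doublets remain there), and nuclei were clustered with Scanpy 1.11.5 (Leiden, 2000 variable genes, 30 components, 15 neighbours) without the 32 genes. Clusters were named from marker lists, and the naming thresholds were set after the clusters were seen. The 1055 mixed and 2524 unnamed nuclei entered only the sums over all nuclei. Of the unnamed, 1399 came from PHD1+/+ replicate 1 and 453 from PHD1-/- replicate 1, and of the mixed 545 and 424. Unnamed clusters of 383, 183 and 137 nuclei scored best as astrocytes with Gfap among their top genes. Of these nuclei 312, 117 and 90 came from PHD1+/+ replicate 1, and the astrocyte class leaves them out. Unnamed clusters of 191, 113, 61 and 52 nuclei scored best as microglia. Of these nuclei 101, 17, 32 and 1 came from PHD1+/+ replicate 1, and the microglia class leaves them out. Sums over the nuclei of a class in a library were compared by edgeR 4.0.16 (TMM, filterByExpr, quasi-likelihood); DESeq2 1.42.0 was an alternative. The edgeR script was tested on simulated data. Total counts per library ran from 14120298 to 33794389; intervals and limits cover counting error only, and the p-values measure the spread between libraries, which the labels do not tie to single mice. Same-numbered libraries deviated together from their group means in all nuclei (r = 0.934, 0.807 and 0.851 for replicates 1, 2 and 3, across 5000 genes). This held in each class but endothelial cells (0.0698 for replicate 3). Differently numbered replicates 2 and 3 also correlated (0.771 and 0.749). In astrocytes PHD1-/- replicate 2 had 0.327 with PHD1+/+ replicate 3 and 0.309 with PHD1+/+ replicate 2. With replicate 1 far apart, centring within groups makes replicates 2 and 3 correlate, so these values cannot show pairs among them. The block, which treats same-numbered libraries as pairs, was therefore an alternative only. Near-identical copies (95% over 300 bases) came from BLAST+ 2.17.0 against GENCODE transcripts of GRCm38.

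In each class the 3 genes of smallest p, and those past the threshold, were given in every library. The 32 genes, the other lists and the tests were chosen with earlier results of these data known.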

Additional observations from a re-analysis of the deposited data

Results flagged for a closer look

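Slc16a1, the lactate transporter MCT1, was higher in every PHD1-/- library in endothelial cells (log2 fold change 1.06) and lower in every PHD1-/- library in microglia (-0.70), so the groups separated in opposite directions in these classes. The difference itself did not pass the class by genotype interaction in edgeR (adjusted p = 1). Slc16a1 is listed here because of its opposite signs. Of all genes tested, 2.46% were likewise higher without overlap in endothelial cells and 2.15% lower without overlap in microglia. Its counts were also low in places. As few as 3 counts amount to 206 CPM in endothelial cells of PHD1-/- replicate 2 and to 15.9 CPM in microglia of PHD1-/- replicate 1. Aldoa has a second identifier in the counts that entered no comparison, and it held 73 UMIs beside 17988 for the main one. Groups of 3 libraries were too small for a test of outlying values.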

How the results depend on the processing

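Leaving out 1 library at a time kept the count of genes of the set called between genotypes at 0 in all 8 comparisons, while the median log2 fold change ran from -0.30 to 0.03 in all nuclei, -0.37 to -0.08 in astrocytes, -0.51 to 0.0496 in oligodendrocytes, -0.41 to -0.15 in OPC, -0.36 to 0.0689 in microglia, -0.18 to -0.01 in excitatory neurons, -0.22 to -0.005 in inhibitory neurons and -0.60 to 0.70 in endothelial cells. The highest values of oligodendrocytes, microglia and endothelial cells were those without PHD1+/+ replicate 1. With replicates 2 and 3 only, the OPC median was -0.0466. With the replicate block 1 gene of the set was called in inhibitory neurons, Aldoa (-0.47), and 0 in each other comparison; with a term for replicate 1 alone, or with replicates 2 and 3 only, 0 were called in all 8. The isoform shares between genotypes gave 83 changes of sign among 447 alternatives and no adjusted permutation p under 0.896.

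With nuclei of at least 1000 UMIs only, Slc2a3 against microglia gave no value in 3 pairs, 45 comparisons remained and 0 of the shares passed. Of those called in the full data, 23 stayed at the smallest possible p, which then adjusted to 0.0541. The other 5 rose above it: 3 for Pfkp (neurons minus astrocytes, neurons minus microglia and astrocytes minus microglia, adjusted permutation p = 0.0879 each), Eno2 in astrocytes minus microglia (0.228) and Slc16a7 in oligodendrocytes minus microglia (0.259). The differences in points were, for Hk2, -8.62 (neurons minus astrocytes), -5.38 (neurons minus oligodendrocytes), -89.99 (neurons minus microglia), -81.4 (astrocytes minus microglia) and -84.6 (oligodendrocytes minus microglia). For Pfkp they were 13.2, 19.96 and 36.2 for neurons minus astrocytes, oligodendrocytes and microglia and 23.03 for astrocytes minus microglia. For Aldoc they were -40.5 and -3.86 for neurons minus astrocytes and oligodendrocytes, 36.7 and 40.8 for astrocytes minus oligodendrocytes and microglia, and, turned in sign, 0.25 for neurons minus microglia and 4.11 for oligodendrocytes minus microglia, neither called in the full data. For Eno2 they were 43.2, 13.2 and 30.2 for neurons minus astrocytes, oligodendrocytes and microglia and -30.01 and -13.02 for astrocytes minus oligodendrocytes and microglia. For Ldhb they were -3.67 (neurons minus oligodendrocytes), 10.2 (astrocytes minus microglia) and 13.03 (oligodendrocytes minus microglia). For Slc2a3 they were 74.8 and 79.6 for neurons minus astrocytes and oligodendrocytes. For Slc16a7 they were 70.4 and 11.2 for neurons minus astrocytes and oligodendrocytes, -59.2 and -69.1 for astrocytes minus oligodendrocytes and microglia, and -9.88 for oligodendrocytes minus microglia. With nuclei under 1% mitochondrial UMIs only, neurons minus astrocytes for Pfkp (13.3) and neurons minus oligodendrocytes for Aldoc (-3.28) no longer passed, and oligodendrocytes minus microglia for Pfkp (14.9) and astrocytes minus oligodendrocytes for Ldhb (-3.10) did; the cause was not tested.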
